A study of Mus musculus with 8 samples.

Results

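Genes used as markers of macrophage activation and polarization were described in cells of the mouse left ventricle, 10 of the 27998 genes in the deposited matrices. They were taken by symbol, all 10 were found once by symbol, and none was used to define a cell class. The genes are Arg1, Nos2, Irg1 (now Acod1), Chil3, Mrc1, Retnla, Saa3, Il10, Cd163 and Ch25h, all protein-coding. Hearts came from male C57BL/6 mice aged 10 to 12 weeks. In the ischemia-reperfusion (IR) group the left anterior descending artery was tied for 30 min and released, and in the sham group the same surgery was done without tying. The sample records name the groups IR0h and IR6h with 4 samples each, 3 hearts were pooled into a sample, and the protocol places both groups 6 h after surgery, so the name 0 h is used here for the library of the samples recorded at 0 h, taken as sham.

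Macrophages, monocytes and neutrophils change which genes they transcribe when they meet injured tissue, microbes or cytokines. Classical activation is usually read from Nos2, the inducible nitric oxide synthase, and alternative activation from Arg1 (arginase 1), Chil3 (Ym1), Mrc1 (the mannose receptor CD206) and Retnla (RELM alpha). In the heart, a resident macrophage population that clears dying cells is joined after ischemia by neutrophils and by monocytes that turn into macrophages.

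Single-cell libraries count unique molecular identifiers (UMIs), which are captured RNA molecules. A matrix pools its 4 samples and no barcode names its sample, so each condition is 1 library, no difference between 0 h and 6 h has a replicate check, and no test was run. The 0 h library held 58653308 UMIs in 11620 barcodes, of which 9777 passed the filter of 200 to 2500 genes and at most 30% mitochondrial UMIs. The 6 h library held 75033226 UMIs in 8539 barcodes, of which 4880 passed. The median cell that passed had 4255 UMIs at 0 h and 3951 UMIs at 6 h, and 30 barcodes occurred in both libraries.

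Cells were placed in a class by marker genes other than the 10. There were 2512 resident macrophage-like cells at 0 h and 297 at 6 h, 259 and 114 classical monocyte-like cells, 135 and 69 nonclassical monocyte-like cells, 12 and 153 recruited cells, and 181 and 2041 neutrophil-like cells. Recruited cells are those led by Thbs1, F10, Vcan, Fn1, Emilin2, Spp1, Ereg and Met that also held monocyte or resident markers, a condition added after a first version of the class was seen to hold neutrophil-like cells. The limit of 2500 genes removed 8.45% of resident macrophage-like cells at 0 h and 61.9% at 6 h. It removed 26.6% and 77.9% of classical monocyte-like cells, and 70.3% of recruited cells at 6 h. Some results are therefore also given for the cells above it. As an alternative, cells were grouped by Leiden clusters, made without the 10 genes and named by the same markers. At 0 h these placed 46 of the 259 classical monocyte-like cells with classical and 144 with nonclassical monocytes. At 6 h they placed 40 of the 114 with classical monocytes and 56 with recruited cells. The part of this difference in the 6 h to 0 h ratios of the class was not tested. Markers of the resident class summed to 30389 CPM (counts of UMIs per 1000000) in resident macrophage-like cells at 0 h and 18441 CPM at 6 h, with all 12 markers found in both, and to 723 CPM in recruited cells at 6 h.

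Levels (CPM) are UMIs of a gene per 1000000 UMIs of all cells of a class, with a 95% exact Poisson interval that covers counting error only and not differences between mice. Free RNA in the suspension adds UMIs to every droplet. B and T cell-like cells, which should hold little of these RNAs, served as the reference for it (1590 cells with a median of 2534 UMIs at 0 h, 963 cells with a median of 3657 UMIs at 6 h). The plot of levels by class shows the whole pattern, in which each gene except Nos2 stood above the lymphocyte level in at least 1 of the 5 myeloid classes.

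**Figure D1:**
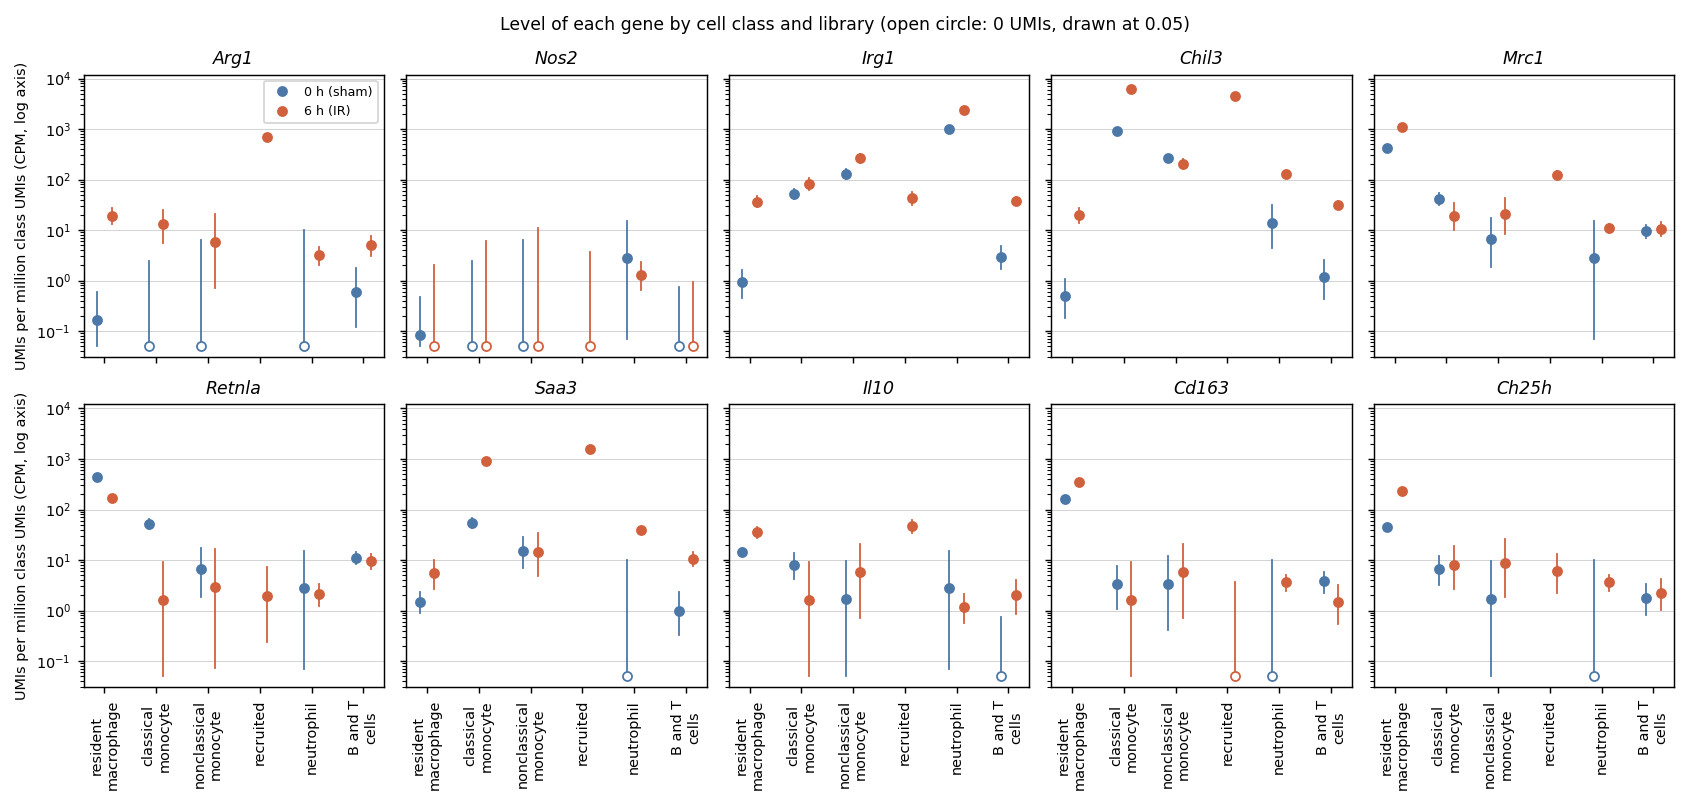
Each panel plots 1 gene, with its level (CPM, log axis) in 5 myeloid classes and in B and T cell-like cells, blue for the 0 h and orange for the 6 h library. Bars are 95% counting intervals, an open circle marks 0 UMIs, and the 12 recruited cells at 0 h are not drawn. Among the myeloid values drawn, Mrc1, Cd163 and Ch25h were highest in resident macrophage-like cells, Arg1 and Saa3 in recruited cells at 6 h, Chil3 in classical monocyte-like cells and Irg1 in neutrophil-like cells.

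Arg1 (chr10:24915221-24927484, minus strand) encodes the enzyme that splits arginine into ornithine and urea. At 6 h it stood at 684 CPM (634 to 737) in recruited cells, from 693 UMIs. It was at 19.3 CPM in resident macrophage-like cells, 12.9 CPM in classical monocyte-like cells, 5.85 CPM in nonclassical monocyte-like cells, 3.13 CPM in neutrophil-like cells and 5.0 CPM in lymphocytes of the same library. Recruited cells held 71.3% of all Arg1 UMIs in cells that passed the filter. The intervals of the monocyte-like classes and of lymphocytes overlapped, while that of resident macrophage-like cells (13.4 to 26.8) lay above lymphocytes (3.05 to 7.72). Outside the 5 myeloid classes, platelet-like cells held 120 CPM (79.3 to 175). Leiden clusters placed 13 of these 64 cells with platelets, 18 with resident macrophages and 15 with neutrophils, so this class may also hold myeloid cells. At 0 h only 19 Arg1 UMIs were found in all 9777 cells, 2 of them in resident macrophage-like cells and none in neutrophil-like or classical monocyte-like cells.

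Within the recruited cells Arg1 was unevenly spread. It was found in 40 of 153 cells (26.1%, exact interval 19.4 to 33.9%), the highest cell held 114 UMIs, and the 10 highest cells held 79.2% of the UMIs. After every cell was thinned to 1000 UMIs, so that depth was equal, Arg1 was found in 16.8% of recruited cells and in 0.31% of B cell-like cells. The 35 Arg1 UMIs of resident macrophage-like cells at 6 h came from 11 of 297 cells, 15 of them from 1 cell, and after thinning the share of such cells was 0.69%, the same as in T cell-like cells (0.69%).

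Nos2 (chr11:78920787-78960254, plus strand) was nearly absent. The whole filtered data held 15 Nos2 UMIs at 0 h and 20 at 6 h. No UMI was found in the 153 recruited or the 297 resident macrophage-like cells at 6 h, which allows up to 2.96 CPM and 1.65 CPM (3 UMIs), 1 was found in the 2512 resident macrophage-like cells at 0 h, and 11 were found in 2041 neutrophil-like cells (1.28 CPM). The endothelial-like cells held the rest but 1 at 6 h, with 8 UMIs (29.3 CPM) in 5 of 79 cells, against 12 UMIs (12.5 CPM) in 11 of 277 cells at 0 h, and these intervals overlapped. Nos2 in macrophages at 6 h was not detectable at this depth, and the 362 recruited and 482 resident macrophage-like cells above the limit of 2500 genes also held 0 UMIs.

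Irg1 (chr14:103046977-103056573, plus strand, annotated as Acod1) encodes the enzyme that makes itaconate from cis-aconitate. Its levels followed the neutrophil-like cells. They held 996 CPM (896 to 1103) at 0 h and 2361 CPM (2328 to 2393) at 6 h, and 82.8% of the Irg1 UMIs in 6 h cells that passed the filter. The log2 ratio of 6 h to 0 h was 1.25 (1.10 to 1.40). The share of neutrophil-like cells with an Irg1 UMI was 70.2% at 0 h and 88.4% at 6 h, and 59.0% and 72.0% after thinning to 1000 UMIs, against 3.39% of B cell-like cells at 6 h.

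In monocyte-like cells Irg1 was lower. Nonclassical monocyte-like cells held 131 CPM at 0 h and 266 CPM at 6 h (log2 ratio 1.02, 0.57 to 1.48), and classical monocyte-like cells 51.3 and 82.1 CPM (0.68, 0.14 to 1.21). In the nonclassical monocyte-like cells the class's own markers summed to only 3131 CPM at 0 h and 1612 CPM at 6 h. Classical monocyte markers summed to 9537 and 3294 CPM there, so the class is not cleanly separated. Neutrophil markers summed to 2774 CPM in it at 0 h and 3087 CPM at 6 h, against 32014 CPM in neutrophil-like cells at 6 h. The part of neutrophil RNA in the Irg1 level was not tested. With cells of high doublet score removed, the nonclassical Irg1 levels were 95.2 and 132 CPM, and with classes taken from Leiden clusters the direction turned, to 67.6 CPM at 0 h and 43.7 CPM at 6 h.

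Resident macrophage-like cells went from 0.92 CPM of Irg1 at 0 h to 36.4 CPM (28.1 to 46.3) at 6 h, and recruited cells held 42.4 CPM (30.7 to 57.1). Lymphocytes of the 6 h library held 38.2 CPM (32.4 to 44.8). The 3 intervals overlapped. Endothelial-like cells held 340 CPM, so the level outside the myeloid classes was not uniform, and the part of free RNA in the macrophage levels was not tested. In resident macrophage-like cells 26 of the 66 UMIs lay in 1 cell, and neutrophil markers summed to 49.3 CPM at 0 h and 224 CPM at 6 h, where B cell-like cells held 352 CPM.

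The 250 bases before the start of Irg1 in RefSeq (GRCm38.p6, chr14:103046762-103047011, plus strand) are shown because Irg1 is the 1 member led by neutrophil-like cells, and capitals mark the letters TATAAA, which begin 28 bases before the start.
Irg1: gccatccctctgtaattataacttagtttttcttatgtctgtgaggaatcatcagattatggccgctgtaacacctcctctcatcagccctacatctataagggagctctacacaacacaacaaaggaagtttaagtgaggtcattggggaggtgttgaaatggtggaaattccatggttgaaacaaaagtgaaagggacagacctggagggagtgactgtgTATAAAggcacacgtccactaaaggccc
RefSeq promoters were matched for 7 of the 10 genes, not for Arg1, Nos2 and Il10. In the 250 bases before the start, both strands were searched for AP-1 (TGANTCA, in 6.75% of 32851 promoters), C/EBP (TTGCNNAA, 9.56%), NF-kB (3.90%), STAT (TTCNNNGAA, 7.02%), the interferon-stimulated response element (ISRE, 2.98%) and TATAAA (12.4%). A match only says that these letters are present. In Ch25h, C/EBP letters begin 112 bases and TATAAA 151 bases before the start, and in Mrc1 and Cd163 none of the 6 motifs was found in this window.

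Chil3 (chr3:106147554-106167564, minus strand), a secreted chitinase-like protein, and Saa3 (chr7:46711998-46715700, minus strand), an acute-phase serum amyloid A protein, shared a pattern. Classical monocyte-like cells held 914 CPM of Chil3 (866 to 964) at 0 h and 6098 CPM (5905 to 6295) at 6 h, and recruited cells held 4424 CPM (4296 to 4556) at 6 h. For Saa3 the classical monocyte-like cells held 54.6 CPM at 0 h and 921 CPM (847 to 999.5) at 6 h, and recruited cells 1577 CPM (1500 to 1656). At 6 h the level of Chil3 was highest in classical monocyte-like and that of Saa3 in recruited cells. The counting intervals of these 2 classes overlapped in neither gene, but they leave out the spread between cells. Per 10000 UMIs of a cell, Chil3 averaged 54.0 (standard deviation 68.7) in classical monocyte-like and 43.1 (48.9) in recruited cells. Saa3 averaged 11.8 (32.4) and 14.1 (33.2). Above the limit of 2500 genes, Saa3 was at 1987 and 2068 CPM in these 2 classes. With classes taken from Leiden clusters the order turned for Chil3, with a log2 ratio of recruited to classical monocyte-like cells of 1.18.

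The log2 ratio of 6 h to 0 h in classical monocyte-like cells was 2.74 (2.65 to 2.83) for Chil3 and 4.08 (3.74 to 4.43) for Saa3. In such cells above 2500 genes the ratios were 1.80 (1.74 to 1.87) and 5.16 (4.80 to 5.55), outside those intervals. With classes taken from Leiden clusters, Chil3 was 173 CPM at 0 h and 2506 CPM at 6 h. Those clusters divided the classical monocyte-like class differently at the 2 times, and the part of that in the ratios was not tested. All 82 Saa3 UMIs at 0 h lay in 7 of 259 cells, 51 of them in 1 cell. At 6 h Saa3 was found in 33 of 114 cells. Thinned to 1000 UMIs, the share of classical monocyte-like cells with a UMI went from 28.9% to 63.5% for Chil3 and from 1.61% to 24.0% for Saa3, and recruited cells stood at 73.8% and 30.2%. B cell-like cells at 6 h stood at 3.08% for Chil3 and 1.08% for Saa3.

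Neutrophil-like cells held little of either gene. Chil3 was at 13.7 CPM (5 UMIs) at 0 h and 131 CPM (124 to 139) at 6 h, and Saa3 at 0 and 39.0 CPM (34.9 to 43.4), both above the 6 h lymphocyte levels of 31.2 and 10.5 CPM. Saa3 was 4.75-fold higher at 6 h with the 0 h sum set to 3 UMIs, and the exact interval of its log2 ratio began at 1.94. Resident macrophage-like cells at 6 h stood at 19.9 CPM of Chil3 and 5.51 CPM of Saa3, below the lymphocyte values. Nonclassical monocyte-like cells held 264 and 205 CPM of Chil3 (log2 ratio −0.37, −0.79 to 0.05), the 1 monocyte-like class in which its interval included no change.

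Both promoters are shown because the 2 genes are high in the same classes; capitals in Chil3 (chr3:106167565-106167814, minus strand) mark STAT letters 172 bases before the start, and in Saa3 (chr7:46715677-46715926, minus strand) ISRE letters 125 bases and C/EBP letters 99 bases before it.
Chil3: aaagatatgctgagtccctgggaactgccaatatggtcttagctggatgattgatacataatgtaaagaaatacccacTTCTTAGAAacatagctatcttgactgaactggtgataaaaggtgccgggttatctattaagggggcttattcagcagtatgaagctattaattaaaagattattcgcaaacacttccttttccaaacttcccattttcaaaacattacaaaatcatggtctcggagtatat
Saa3: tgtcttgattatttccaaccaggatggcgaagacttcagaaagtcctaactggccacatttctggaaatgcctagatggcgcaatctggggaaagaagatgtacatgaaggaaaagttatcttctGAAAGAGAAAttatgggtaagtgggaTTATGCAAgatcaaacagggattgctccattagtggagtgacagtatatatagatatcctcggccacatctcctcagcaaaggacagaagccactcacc
The 2 windows hold no motif of the 6 in common.

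Mrc1 (chr2:14229392-14332057, plus strand) and Cd163 (chr6:124304656-124330527, plus strand) are endocytic receptors, the second for hemoglobin bound to haptoglobin. Both marked the resident class. Resident macrophage-like cells held 427 CPM of Mrc1 (416 to 439) at 0 h and 1098 CPM (1050 to 1147) at 6 h, a log2 ratio of 1.36 (1.29 to 1.44). Cd163 went from 164 CPM (157 to 172) to 350 CPM (323 to 378), a log2 ratio of 1.09 (0.96 to 1.22).

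With equal depth the same direction was seen in shares of cells. Mrc1 was found in 31.6% of resident macrophage-like cells at 0 h and 53.5% at 6 h, and Cd163 in 11.9% and 21.9%. In the cells above 2500 genes the log2 ratios were 1.65 for Mrc1 (445 to 1396 CPM) and 1.60 for Cd163 (194 to 588 CPM). The receptors were also looked for in the same cells. At 0 h, 40.6% of resident macrophage-like cells with an Mrc1 UMI had a Cd163 UMI, against 20.8% of those without, and after thinning the shares were 14.2% and 10.9%, whose intervals overlapped. With cells above 2500 genes included they were 15.7% (13.3 to 18.3%) and 10.9% (9.54 to 12.4%), which did not overlap. At 6 h the thinned shares were 30.5% (23.4 to 38.4%) and 11.9% (6.98 to 18.7%), whose intervals did not.

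The receptors differed outside the resident class. Recruited cells at 6 h held 121 CPM of Mrc1 (101 to 145), in 31 of 153 cells, and 0 UMIs of Cd163, at least 118-fold lower than resident macrophage-like cells. The thinned share of recruited cells with Mrc1 was 8.72%, against 0.92% of B cell-like cells. Some other classes at 6 h had higher Mrc1 levels, with dendritic-like cells at 247 CPM and cardiomyocyte-like cells at 231 CPM. Platelet-like cells were at 192 CPM (139 to 258), an interval that overlapped that of recruited cells. Leiden clusters placed 12 of 53 dendritic-like, 5 of 80 cardiomyocyte-like and 18 of 64 platelet-like cells with resident macrophages. The part of such cells in these Mrc1 levels was not tested. In recruited cells above 2500 genes Mrc1 was at 153 CPM and Cd163 at 8.46 CPM, against 1.5 CPM in lymphocytes of the filtered cells.

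In classical monocyte-like cells Mrc1 was 41.3 CPM at 0 h (62 UMIs in 35 cells) and 19.3 CPM at 6 h (12 UMIs in 5 cells), a log2 ratio of −1.10 (−2.12 to −0.19) with the sign opposite to that of the resident class. With classes taken from Leiden clusters the ratio was 0.76. Among classical monocyte-like cells above 2500 genes the direction was reversed, 27.7 CPM to 55.8 CPM (log2 ratio 1.01). Resident markers summed to 3067 CPM in the classical monocyte-like cells at 0 h and to 657 CPM at 6 h, and their part in the Mrc1 level was not tested. Neutrophil-like cells held 10.9 CPM of Mrc1 at 6 h, and lymphocytes 10.5 CPM.

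Retnla (chr16:48842551-48844461, plus strand), a secreted resistin-like protein, was the only gene of the 10 past a 2-fold fall in resident macrophage-like cells. It went from 436 CPM (425 to 448) to 167 CPM (149 to 187), a log2 ratio of −1.39 (−1.56 to −1.22), and −0.81 with classes taken from Leiden clusters. Few cells carried it. At 0 h 180 of 2512 cells (7.17%) had a UMI, the highest held 399 UMIs, and the top 1% of cells held 72.2% of the UMIs, compared with 5.77% for Mrc1. At 6 h 16 of 297 cells (5.39%) had a UMI, and 10 of them held 98.0%. Thinned shares were 3.99% (3.26 to 4.84%) and 2.78% (1.21 to 5.40%), with overlapping intervals, so the difference lay in UMIs of a few cells and not detectably in the number of cells. Of the Retnla UMIs in filtered 6 h cells, 48.7% were in cells left without a class.

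Retnla levels were higher in one kind of resident macrophage-like cell. Cells were split by UMIs of Timd4, Lyve1 and Folr2 after thinning, 3 class markers of long-lived tissue macrophages. At 0 h, 599 of 2479 cells had 2 or more such UMIs and held 1358 CPM of Retnla (1318 to 1399), and the 1474 cells with none held 88.9 CPM (81.9 to 96.3). At 6 h the values were 816 CPM in 46 of 288 cells and 6.24 CPM in the 201 cells with none. Only 16 of the 297 resident macrophage-like cells at 6 h had a Retnla UMI, and 7 cells held 96.4% of the UMIs. The 6 h contrast therefore rests on few cells. In the 85 cells with at least 5 Retnla UMIs at 0 h, the levels of Fcna and Vsig4 stood out most from cells without Retnla. Fcna, a ficolin, was at 320 against 37.4 CPM and was found in 52 of the 85 cells. Vsig4, a complement receptor, was at 232 against 24.2 CPM and was found in only 22 of them.

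Other members split less. Cd163 was 301 CPM in the Timd4, Lyve1 and Folr2-rich cells and 91.1 CPM in those with none at 0 h, and 706 and 279 CPM at 6 h. Mrc1 was 582 and 349 CPM at 0 h, and 1445 and 1033 CPM at 6 h. Both receptors were therefore higher at 6 h than at 0 h on each side of the split. Ch25h was lower in the rich cells at 0 h, with 20.6 against 58.2 CPM. At 6 h it was 177 CPM (131 to 233) against 239 CPM (213 to 267), with overlapping intervals. Il10 was alike at 0 h, with 15 and 15.2 CPM, while at 6 h it was 0 UMIs in the 46 rich cells (upper interval bound 13 CPM) and 41.4 CPM in the 201 cells with none. Only 18 of the 297 resident macrophage-like cells at 6 h had an Il10 UMI, so this 6 h contrast rests on few cells.

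The window before Retnla (chr16:48842359-48842608, plus strand) is shown because its UMIs were the most concentrated of the 5 genes described in the resident class, and capitals mark C/EBP letters 134 bases and TATAAA 30 bases before the start.
Retnla: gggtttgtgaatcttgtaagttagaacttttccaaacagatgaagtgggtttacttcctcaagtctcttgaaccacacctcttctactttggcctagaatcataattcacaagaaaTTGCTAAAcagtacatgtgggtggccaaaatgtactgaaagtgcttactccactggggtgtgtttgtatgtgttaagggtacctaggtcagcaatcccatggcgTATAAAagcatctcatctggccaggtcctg
In the other classes Retnla was at 51.3 CPM in classical monocyte-like cells at 0 h, from 77 UMIs in 9 cells with 40 in 1 cell, and at 1.61 CPM (1 UMI) at 6 h. Lymphocytes held 11.1 and 9.49 CPM. Recruited cells below the limit held 2 UMIs (1.97 CPM), while those above it held 228 CPM, with 926 of 1292 UMIs in 1 cell.

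**Figure D2:**
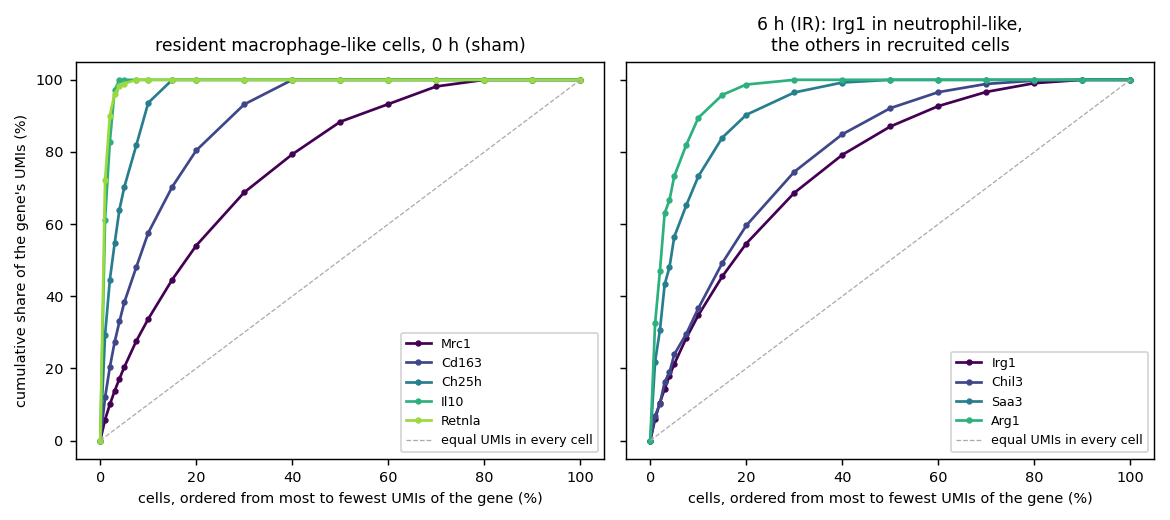
Cumulative share of a gene's UMIs (%) over cells ordered from most to fewest UMIs of that gene (%), in resident macrophage-like cells at 0 h and, at 6 h, in neutrophil-like (Irg1) or recruited cells (Chil3, Saa3, Arg1). The dashed line is an equal number in every cell, and over the first 1% of cells Retnla (72.2%), Il10 (61.1%) and Arg1 (32.5%) rise most steeply.

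Ch25h (chr19:34473778-34475164, minus strand) encodes cholesterol 25-hydroxylase, which makes an oxysterol. It showed the largest change among the members at 20 CPM or more at 0 h in resident macrophage-like cells, from 44.5 CPM (40.8 to 48.4) to 230 CPM (209 to 254), a log2 ratio of 2.37 (2.19 to 2.56). The thinned share of cells was 4.11% (3.37 to 4.97%) at 0 h and 18.8% (14.4 to 23.7%) at 6 h. After thinning no B cell-like cell at either time had a UMI, and unthinned they held 0.32 CPM at 0 h and 2.09 CPM at 6 h. Recruited cells stood at 5.92 CPM, 38.9-fold lower than resident macrophage-like cells, and neutrophil-like cells at 3.60 CPM. The 56 resident macrophage-like cells with at least 3 Ch25h UMIs at 6 h were led by the monocyte-attracting chemokines Ccl12 (5365 CPM, against 603 CPM in cells without Ch25h) and Ccl7 (4183 against 1112 CPM).

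Ch25h was not limited to macrophages. Fibroblast-like cells went from 14.7 CPM (12.8 to 16.9) to 151 CPM (117 to 191), and endothelial-like cells from 5.22 CPM (5 UMIs) to 190 CPM (142 to 250). Dendritic-like cells held 247 CPM at 6 h, from 8 of 53 cells. Leiden clusters placed 12 of these 53 cells with resident macrophages. The limit of 2500 genes kept 107 fibroblast-like cells at 6 h and removed 837, against 2803 and 561 at 0 h. At 6 h it also removed 61 endothelial-like and 73 dendritic-like cells. These levels therefore cover only a part of each class, unequal between the libraries. At 6 h the intervals of resident macrophage-like, endothelial-like and dendritic-like cells overlapped, so the order of these 3 is not resolved.

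Il10 (chr1:131019845-131024974, plus strand), the cytokine that limits inflammatory gene expression, was low everywhere. Resident macrophage-like cells held 14.6 CPM (12.5 to 16.9) at 0 h and 35.3 CPM (27.2 to 45.1) at 6 h, a log2 ratio of 1.28 (0.84 to 1.70). Recruited cells held 46.4 CPM (34.1 to 61.7), from 47 UMIs in 17 of 153 cells. These 2 classes did not differ beyond counting error (log2 ratio 0.39, −0.18 to 0.96), and both stood above lymphocytes at 2.0 CPM. Thinned to 1000 UMIs, Il10 was found in 0.93% of resident macrophage-like cells at 0 h, 2.43% at 6 h and 3.36% of recruited cells, with overlapping intervals.

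Counted together, a member was called higher or lower when its level differed by at least 2-fold and the 2 sums held at least 20 UMIs. In resident macrophage-like cells 9 members reached the minimum, 8 were higher at 6 h and 1, Retnla, was lower, where 10.4% of the 10527 genes tested were higher and 7.76% lower. The calls of Il10 (0.93 with no upper limit on genes), Cd163 (0.87 with Leiden classes) and Retnla (−0.81 with Leiden classes) were lost under an alternative. Of the 8, Irg1, Chil3 and Saa3 ended at or below the lymphocyte level of the 6 h library. In classical monocyte-like cells 2 of 5 members were higher (Chil3 and Saa3) and 2 lower (Mrc1 and Retnla), where 8.71% of genes were higher and 15.1% lower. In neutrophil-like cells 4 of 7 were higher (Irg1, Chil3, Saa3 and Mrc1, the last from 1 UMI with an interval that includes no change, and with Leiden classes Chil3 at a log2 ratio of 0.87 and Mrc1 at −0.95) and none lower, Arg1, Cd163 and Ch25h having 0 UMIs at 0 h, where 12.1% of genes were higher and 15% lower.

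Between classes at 6 h, recruited cells were higher than resident macrophage-like cells in Arg1 (35.4-fold), Chil3 (223-fold) and Saa3 (286-fold) and lower in Mrc1 (9.05-fold), Retnla (84.7-fold), Ch25h (38.9-fold) and Cd163, 3 and 4 of the 9 members tested, where 9.48% of genes were higher and 26.6% lower. The Chil3, Saa3 and Retnla folds each rest on 1 class at or below the lymphocyte level, and Retnla on 2 UMIs in recruited cells. With no upper limit on genes the Retnla log2 ratio was −0.14, and above the limit the levels were 228 and 226 CPM. Against classical monocyte-like cells, recruited cells were higher in Arg1 (53.1-fold), Mrc1 (6.28-fold) and Il10 (28.8-fold, from 1 UMI in the monocyte-like cells, log2 interval 2.30 to 10.2) and lower in none of the 6 tested, where 7.83% of genes were higher and 9.07% lower. With classes taken from Leiden clusters, Arg1 was 441 against 124 CPM and the Mrc1 log2 ratio turned to −0.85, and with no upper limit on genes the Il10 log2 ratio was 0.68, short of 2-fold. Neutrophil-like cells were higher than recruited cells in Irg1 (55.6-fold) and lower in Arg1, Chil3, Mrc1, Saa3 and Il10 of the 9 tested, where 14.4% of genes were higher and 43.4% lower. These comparisons share the recruited cells.

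**Figure D3:**
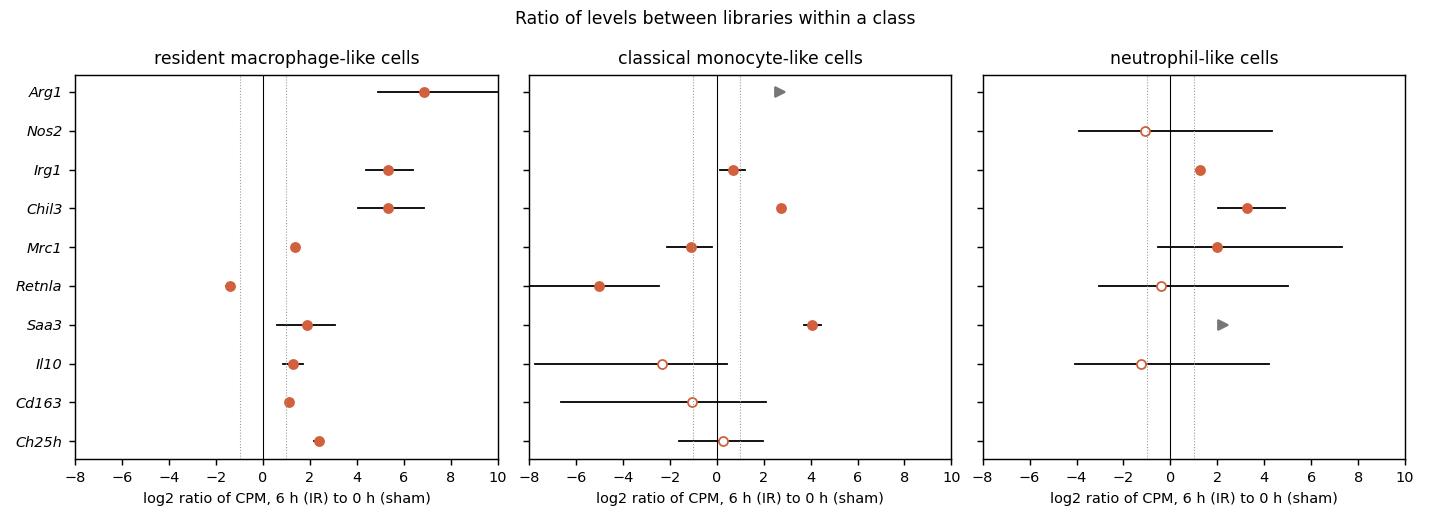
Log2 ratio of CPM, 6 h to 0 h, with 95% counting intervals cut at the edge of the axis, for each gene in 3 classes. Filled points reach 20 UMIs in the 2 sums, open points do not, triangles are ratios with 0 UMIs at 0 h set to 3, and dotted lines mark 2-fold. All genes but Retnla lie right of 0 in resident macrophage-like cells, where Nos2 has no ratio, whereas Mrc1 and Retnla, and Il10 and Cd163 as open points, lie left of 0 in classical monocyte-like cells.

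Members were also looked for in the same recruited cells at 6 h. Of the 40 recruited cells with Arg1, 33 had Chil3 (82.5%, 67.2 to 92.7%), against 87.6% of the 113 cells without Arg1, and 19 had Saa3 (47.5%, against 47.8%). Mrc1 was found in 32.5% of cells with Arg1 and 15.9% without, with intervals of 18.6 to 49.1% and 9.72 to 24.0%. Among 511 recruited cells, those above 2500 genes included and each thinned to 1000 UMIs, Mrc1 was found in 20.4% (13.4 to 29.0%) of cells with Arg1 and 6.78% (4.52 to 9.72%) of those without. The shares with Chil3 or Saa3 did not differ beyond their intervals, and that with Mrc1 did in this larger set. Saa3 was found in 53.8% of recruited cells with Chil3 and in 9.52% of the 21 without, and 33.6% and 20.5% after thinning, with overlapping intervals. In the larger set the thinned shares were 39.5% (34.7 to 44.5%) and 21.9% (14.7 to 30.6%), which did not overlap.

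**Figure D4:**
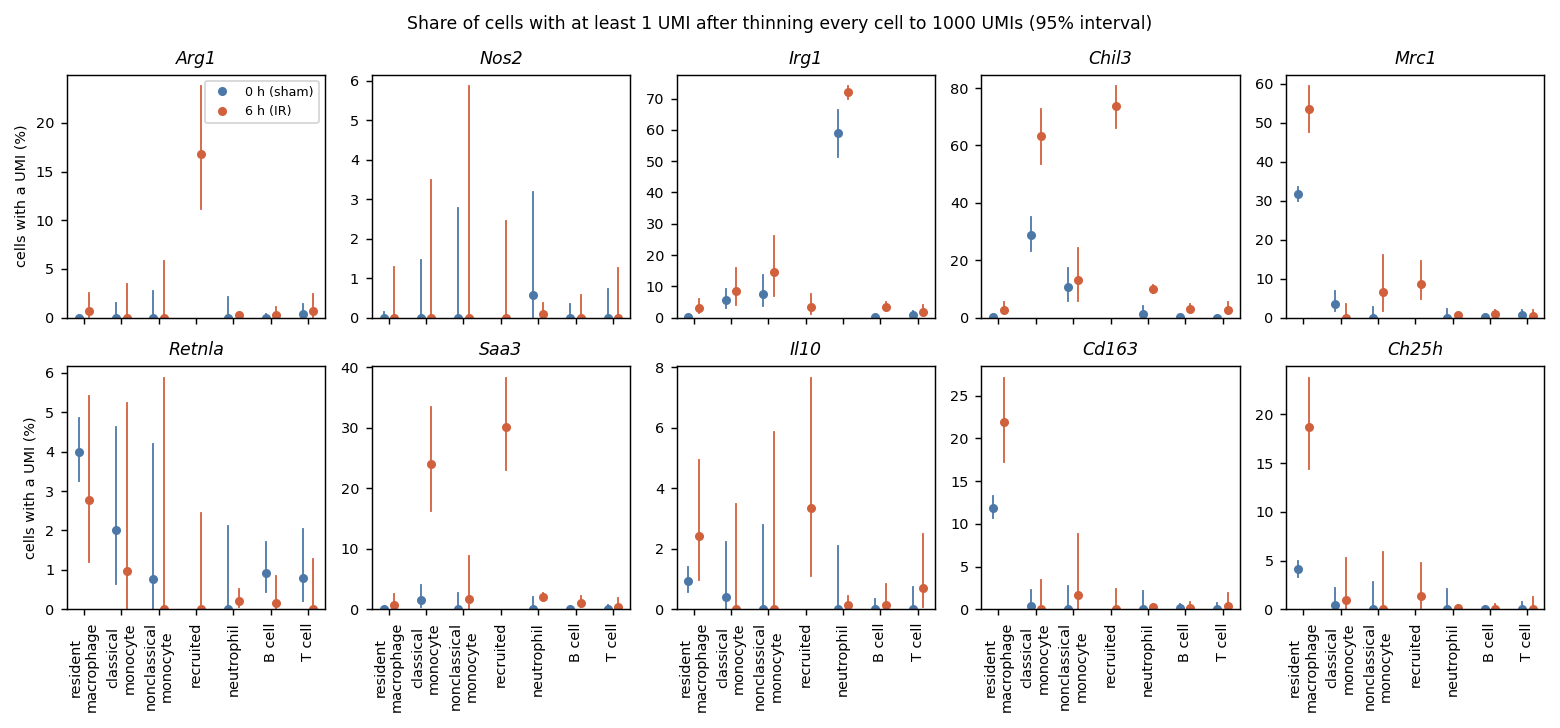
Share of cells (%) with at least 1 UMI of each gene after every cell was thinned to 1000 UMIs, by class, blue for 0 h and orange for 6 h, with 95% exact intervals and a linear axis from 0 in each panel. Irg1 reached 72.0% of neutrophil-like cells at 6 h, Chil3 73.8% of recruited cells and Mrc1 53.5% of resident macrophage-like cells.

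Cells above the limit of 2500 genes held the larger part of the recruited class. In these 362 cells Arg1 was 1144 CPM, Chil3 4781 CPM and Saa3 2068 CPM, against 684, 4424 and 1577 CPM below the limit. In the 482 resident macrophage-like cells above it at 6 h, Saa3 was 47.3 CPM, against 5.51 CPM below, and Chil3 38.6 CPM. The Retnla ratio of 6 h to 0 h above the limit was −2.23 (1058 CPM to 226 CPM), and those of Ch25h and Il10 were 1.99 and 1.13. Which of these cells are doublets was not tested cell by cell.

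**Figure D5:**
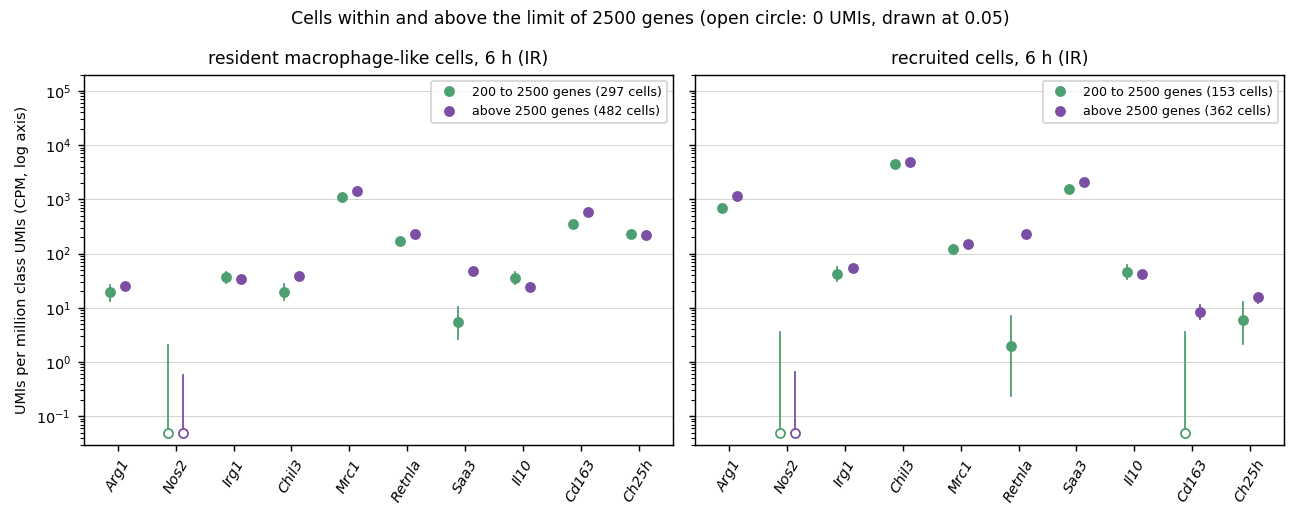
Levels (CPM, log axis) at 6 h in resident macrophage-like and recruited cells with 200 to 2500 genes (green) and above 2500 genes (purple), with 95% counting intervals and open circles at 0 UMIs. Retnla in recruited cells (1.97 and 228 CPM) and Saa3 in resident macrophage-like cells (5.51 and 47.3 CPM) differed most, and Nos2 had 0 UMIs in all 4 groups.

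Other genes of the same programs, from 5 lists, placed the members among their partners. In resident macrophage-like cells 7 of 15 tested genes of classical activation were higher at 6 h and none lower (median log2 ratio 0.92, against 0.13 for all genes, of which 10.4% were higher and 7.76% lower), led by the cytokine Il1a (6.83 to 189 CPM), the prostaglandin synthase Ptgs2 (8.83 to 147 CPM) and the chemokine Ccl5 (10.2 to 154 CPM). Of 14 genes of alternative activation 7 were higher and none lower (median 1.07), with the largest ratios for the chemokine Ccl17 (2 and 18 UMIs), the cytokine-signaling inhibitor Cish (2.08 to 17.6 CPM) and the transglutaminase Tgm2 (3.75 to 16.5 CPM). Both lists thus had members higher at 6 h in the same class, and no gene of either was called lower.

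For scavenger receptors and the IL-10 response 4 of 13 were higher and 2 lower, with Il1rn, the interleukin-1 receptor antagonist, at 17.5 and 219 CPM, the lipid scavenger Cd36 at 129 and 749 CPM and the heme-degrading enzyme Hmox1 at 319 and 1615 CPM. Among enzymes of arginine, itaconate and oxysterol metabolism 3 of 13 were higher and none lower, namely the mitochondrial arginase Arg2 (3 and 17 UMIs), the arginine transporter Slc7a1 (10.7 to 41.9 CPM) and the spermidine synthase Srm (25.7 to 72.8 CPM). Of 18 transcription factors 1 was higher, Nfkb1 (89.2 to 194 CPM), and 2 lower, among them Irf7 (294 to 40.8 CPM), a mediator of interferon responses, shares near those of all genes.

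Classical monocyte-like cells had 10 of 14 classical activation genes higher at 6 h and 1 lower (median 1.44, all genes −0.13, of which 8.71% were higher and 15.1% lower). The largest ratios were those of Il1a (3.33 to 54.7 CPM), Ptgs2 (47.3 to 662 CPM) and the costimulator Cd80 (3.99 to 22.5 CPM). Of 9 alternative activation genes 4 were higher and 2 lower (median 0.74), with Cish at 9.99 and 119 CPM, Tgm2 at 13.3 and 116 CPM and the lectin Mgl2 at 95.9 and 14.5 CPM. The scavenger list had 3 of 11 higher and none lower, namely Il1rn (48.6 to 270 CPM), the scavenger receptor Msr1 (56.6 to 280 CPM) and Cd36 (19.3 to 78.9 CPM). Of the enzymes 3 of 14 were higher and 1 lower, with Arg2 at 9.32 and 101 CPM, the ornithine decarboxylase Odc1 at 31.3 and 90.2 CPM, and Ass1, which makes the precursor of arginine, at 111 and 20.9 CPM. Of 17 transcription factors 4 were higher and 4 lower, with the hypoxia-inducible factor Hif1a at 85.2 and 325 CPM and Irf7 at 1246 and 77.3 CPM.

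Neutrophil-like cells had 8 of 15 classical activation genes higher at 6 h and none lower (median 1.45, all genes −0.22, of which 12.1% were higher and 15% lower). Il1a was listed at 0 UMIs and 435 CPM, the interleukin-23 subunit Il23a at 13.7 and 132 CPM and the cytokine-signaling inhibitor Socs3 at 238 and 1283 CPM. Of 12 alternative activation genes 4 were higher and 1 lower, with Cish at 8.20 and 240 CPM and Egr2 at 5.47 and 19.5 CPM (3 and 2 UMIs at 0 h). Of the scavenger list 6 of 11 were higher and 1 lower, with Il1rn at 342 and 1881 CPM, Tgfb1 at 60.2 and 309 CPM and the IL-10 receptor chain Il10ra at 71.1 and 221 CPM. Odc1 (5.47 to 22.6 CPM, 2 UMIs at 0 h) was the 1 enzyme of 7 that was higher, none was lower, and the oxysterol receptor Nr1h2 (57.4 to 31.9 CPM) stayed within 2-fold. Of 17 transcription factors 4 were higher and 3 lower, with Nfkb1 at 82.1 and 313 CPM and Irf7 at 766 and 54.8 CPM.

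Between recruited and resident macrophage-like cells at 6 h, the enzyme list had a median log2 ratio of −0.37, against −0.34 for all genes, with 3 of 14 higher and 3 lower, where 9.48% of genes were higher and 26.6% lower. Ass1 was 64.1 against 0.55 CPM (1 UMI), Arg2 183 against 9.37 CPM, and Odc1, which uses the product of arginase, 305 against 45.2 CPM, while Srm, Spr and Gpr183 were lower. Of classical activation genes 9 of 16 were higher and 3 lower (median 1.21), with Ptgs2 at 2352 against 147 CPM, Il23a at 88.8 against 4.96 CPM and Ccl5 at 5.92 against 154 CPM. Of alternative activation genes 6 of 14 were higher and 6 lower, with Mgl2 at 21.7 against 651 CPM, the growth factor Igf1 at 5.92 against 235 CPM and the ribonuclease Ear2 at 23.7 against 0.55 CPM. The scavenger list was split 4 and 4 of 12, with Nfil3 at 246 against 53.5 CPM, Cd36 at 77.9 against 749 CPM and Vsig4 at 0.99 against 18.2 CPM. The transcription factors were split 4 and 4 of 17, with Hif1a at 719 against 71.7 CPM, Irf8 at 41.4 against 218 CPM and Cebpa at 35.5 against 126 CPM.

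Against classical monocyte-like cells at 6 h, recruited cells were higher in 6 of 14 classical and 5 of 10 alternative activation genes and lower in 1 of each, where 7.83% of genes were higher and 9.07% lower. The largest differences were in Il1a (430 against 54.7 CPM), Cxcl10 (260 against 979 CPM) and Ptgs2 (2352 against 662 CPM) of the former and Ccl17 (31.6 against 1.61 CPM, 1 UMI), Ccl24 (234 against 27.4 CPM) and Ear2 (23.7 against 82.1 CPM) of the latter. Of the scavenger list 4 of 11 were higher and none lower, with Stab1 at 99.7 against 19.3 CPM, Hmox1 at 657 against 143 CPM and Il1rn at 869 against 270 CPM. Of the enzymes 3 of 13 were higher and none lower, namely Odc1 (305 against 90.2 CPM), Ass1 (64.1 against 20.9 CPM) and the spermine synthase Sms (26.6 against 12.9 CPM). Hif1a (719 against 325 CPM) and Maf (207 against 88.5 CPM) were higher and Irf7 (34.5 against 77.3 CPM) lower among 17 transcription factors.

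Neutrophil-like cells were lower than recruited cells in 10 of 15 alternative activation genes and 10 of 13 enzymes, with 1 higher in each, where 43.4% of all genes were lower and 14.4% higher and the median log2 ratio of all genes was −0.72. The shares lower in the other 3 lists were near or below that of all genes. Ear2 (0.12 against 23.7 CPM), Ccl17 (1.04 against 31.6 CPM) and Ccl24 (12.8 against 234 CPM) led the first, and Ass1 (0.35 against 64.1 CPM), the oxysterol-sensing receptor Gpr183 (2.09 against 34.5 CPM) and Sms (1.74 against 26.6 CPM) the second. Of classical activation genes 2 of 17 were higher and 5 lower, led by Il6 (9.17 against 335 CPM), Cd86 (12.6 against 287 CPM) and Cd40 (1.04 against 15.8 CPM). Of the scavenger list 1 of 11 was higher and 5 lower, led by Msr1 (8.24 against 678 CPM), Stab1 (6.61 against 99.7 CPM) and Cd36 (11.95 against 77.9 CPM). None of 17 transcription factors was higher and 6 were lower, among them Maf (6.85 against 207 CPM) and Irf8 (4.06 against 41.4 CPM).

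Over 28 sums of a class in a library, the 3 genes whose levels followed each member most closely were found by Pearson's r of log2(CPM + 10), as a description without a test, since the sums share 2 libraries and the classes' markers. Mmp19, a matrix metalloproteinase, was nearest to Arg1 (r = 0.84) and the second nearest to Saa3 (0.87), after Dmkn (0.93). Irg1 was followed by Il1f9 (0.95), an interleukin-1 family cytokine, then Asprv1 and the neutrophil-class marker Hdc. Chil3 was followed by the recruited-class marker F10 (0.94), Ms4a8a and Serpinb2. Mrc1 was followed by C3ar1 (0.95), a complement receptor, and Ccl12 and Cd163, and Cd163 by Fcrls (0.95), Mrc1 and Folr2. Retnla was followed by Ltc4s (0.81), the leukotriene C4 synthase, then Cbr2 and Folr2, and Ch25h by Glul (0.79) and Ccl2 (0.79). With a pseudocount of 1 CPM, 2 of the 3 genes remained for Irg1, Mrc1 and Saa3, and 1 of the 3 for each of the other 5.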

How the data were processed

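Hearts of each group were digested, debris was removed, and cells were captured with the 10x Genomics 3′ chemistry. The authors ran Cell Ranger (3.1.0 in the matrix headers) against mm10 and deposited whole-number UMI counts per gene and barcode, which are not normalized. Only these 2 matrices were used, 1 for each condition. Whether barcodes without cells or doublets were removed before deposit is not given in the sources used here.

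Barcodes with 200 to 2500 genes and at most 30% mitochondrial UMIs were kept, with genes found in at least 5 cells, as in the study's methods. Applied to the deposited matrices, this filter left fewer cells in both conditions than the study states, and the reason was not tested. Each cell took the class with the highest mean scaled marker score, if that score was at least 0.3 and led by at least 0.2, and other cells had no class. Recruited cells also needed at least 2 UMIs of resident or classical monocyte markers, more than of neutrophil or fibroblast markers, a condition added after seeing the data. UMIs were summed per class and library. Levels have exact Poisson intervals, ratios exact conditional binomial intervals and shares exact Clopper-Pearson intervals, all at 95% and all for counting error only, since PCR duplicates are removed by UMI but mice are not separated. A sum of 0 was set to 3 UMIs, and ratios with fewer than 20 UMIs in the 2 sums were not called. A ratio called higher or lower was at least 2-fold. Doublets were left in, and removing cells of high doublet score (909 and 333 cells, at an assumed 0.8% for every 1000 barcodes) was an alternative.

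The members and gene lists were chosen with earlier results of these data known. All 10 members are named, and of each list the 3 genes with the largest ratio, except Igf1 in neutrophil-like cells, which had 0 UMIs at 0 h and no bound. Some other genes that this rule names are not reported here. The genes nearest to a member were taken for members reaching 50 CPM in a class, among genes reaching 100 CPM. Alternatives were no upper limit on genes, at most 10% mitochondrial UMIs, a stricter margin of 0.5, classes from Leiden clusters, means over cells, other totals, other minimums and thinning to 500 UMIs. The ratio and interval code was tested on simulated data. Python 3.11.15, numpy 2.4.6, scipy 1.17.1, pandas 2.3.3, scanpy 1.11.5 and matplotlib 3.10.9 were used. Gene positions are from the GENCODE annotation of GRCm38 and promoter sequences from RefSeq on GRCm38.p6.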

Additional observations from a re-analysis of the deposited data

Results flagged for a closer look

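Mrc1 moved in opposite directions in 2 classes. Its log2 ratio of 6 h to 0 h was 1.36 in resident macrophage-like cells (5129 and 1991 UMIs) and −1.10 in classical monocyte-like cells (62 and 12 UMIs), with both intervals excluding 0, and the difference between the classes was not tested because each condition is 1 library. The monocyte value turned to 0.56 with no upper limit on genes and to 0.76 with classes from Leiden clusters, while the 403 classical monocyte-like cells above the limit at 6 h and the 94 at 0 h gave 1.01.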

How the results depend on the processing

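Of 372 log2 ratios recomputed under alternatives, 341 kept their direction and their side of 2-fold, 10 went past it, 11 fell short of it and 10 reversed. Of 120 counts of members called, 105 stayed within 1.5 times the value reported, and of 810 levels 617 moved by no more than their interval. Without the upper limit on genes, classical monocyte-like cells had 4 members higher and 1 lower at 6 h (2 and 2 with it), their Mrc1 ratio turned to 0.56, the neutrophil to recruited ratio of Retnla was −6.64 (0.08 with it), the Il10 ratio in resident macrophage-like cells was 0.93, the recruited to resident ratio of Retnla was −0.14 and the recruited to classical monocyte ratio of Il10 was 0.68. With likely doublets also left out, a choice made after seeing the data, the monocyte counts were 5 and 1, and the ratios were 0.61 for Mrc1, −6.82 for Retnla and −1.11 for Cd163 (neutrophil to recruited). With Leiden classes no member was lower in resident macrophage-like cells (1 in the main setting), since Retnla was at −0.81, and Cd163 was at 0.87, and Chil3 in neutrophil-like cells at 0.87. Those classes also gave 2 members lower in neutrophil-like cells (0), 3 higher in neutrophil-like than recruited cells (1), and Mrc1 ratios of 0.76 in classical monocyte-like cells, −0.95 in neutrophil-like cells and −0.85 for recruited to classical monocyte-like cells, where Chil3 was 1.18. Means over cells, and totals without mitochondrial, ribosomal protein and hemoglobin genes, each gave 1 member lower in recruited than classical monocyte-like cells (0), and those totals 1 lower in classical monocyte-like cells at 6 h (2). With no minimum of UMIs, 4 members were lower in classical monocyte-like and 2 in neutrophil-like cells, through sums of few UMIs. Without the monocyte-marker condition, recruited cells had 5 members higher and 1 lower than classical monocyte-like cells, with Irg1 at 3.17, and neutrophil-like cells had 2 higher than recruited cells. Except where an alternative's own construction gives it, the cause was not tested. No paired analysis was possible because the matrices carry no sample numbers, and leaving out a replicate was not possible with 1 matrix for each condition.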

Other observations

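At 0 h 12 cells scored as recruited (33 without the upper limit on genes), too few for the comparisons. They held 1937 CPM of Saa3 (1630 to 2286), 140 UMIs in 8 of the 12 cells, which is 42.2% of the Saa3 UMIs in filtered 0 h cells. The 6 of them with at least 3 Saa3 UMIs were led by Fn1 (fibronectin), Prg4 (lubricin) and Alox15, a lipoxygenase, each found in all 6 cells and at 0 UMIs in the 4 cells without Saa3. Those 4 cells had a median of 552 UMIs, against 8456 UMIs in the 6. Resident macrophage markers summed to 20423 CPM in the 12 cells and to 723 CPM in the recruited cells at 6 h. Chil3 and Arg1 had 1 UMI each in the 12 cells.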
